A study of Mus musculus with 12 samples.

Results

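The 10 genes described here are those that define or enrich for hematopoietic stem cells at the cell surface or are shared between stem cells and endothelium, namely Procr, Esam, Robo4, Slamf1, Cd48, Cd34, Tie1, Tek, Fgd5 and Sult1a1. They were taken by symbol from the 55487 genes of the deposited tables, and all 10 were found. The RNA came from mouse LSK cells, which lack lineage markers, carry Sca-1 and Kit and include the stem cells and multipotent progenitors of the marrow. Marrow had been transplanted on a C57BL/6 background, and all 4 groups carry a genotype labelled homozygous for JAK2V617F, a mutation that makes the kinase constantly active and that drives myeloproliferative neoplasms in people. The groups of 3 libraries each were palbociclib (which blocks CDK4 and CDK6), ruxolitinib (which blocks JAK1 and JAK2), the combination of both drugs, and vehicle. Doses, treatment times, ages, the conditioning of the recipients and the share of host cells left in the marrow are not given in the sources used here. Nothing in the labels says that each library is a different mouse, so p-values measure only the spread between libraries, which may be technical.

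Stem cells and the endothelium that gives rise to them in the embryo share part of their surface repertoire, and several of these genes were first known from blood vessels. In mouse marrow, stem cells are isolated as LSK cells that carry SLAM family member 1 (CD150, encoded by Slamf1) and the endothelial protein C receptor (encoded by Procr) but lack CD48 and, in the adult, most CD34. The receptor tyrosine kinase encoded by Tek binds angiopoietins and is known in mouse for helping to keep stem cells quiescent, and Tie1 encodes its closest relative. Blocking the cyclin D kinases or the mutant JAK2 kinase in LSK cells poses the question of whether the stem cell part of this fraction gains or loses its transcripts.

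The sequences in front of the transcription starts are shown for the 3 genes that rose with every treatment (Procr, Tie1 and Fgd5), for Sult1a1, which had the highest fold, and for Cd34 and Cd48, which passed in no comparison with vehicle. Each is the 250 bases before the RefSeq start on GRCm38.p6, written 5′ to 3′ on the strand of the gene, with matches to the motifs named afterwards in capitals.
Procr (chr2:155750967-155751216, plus strand): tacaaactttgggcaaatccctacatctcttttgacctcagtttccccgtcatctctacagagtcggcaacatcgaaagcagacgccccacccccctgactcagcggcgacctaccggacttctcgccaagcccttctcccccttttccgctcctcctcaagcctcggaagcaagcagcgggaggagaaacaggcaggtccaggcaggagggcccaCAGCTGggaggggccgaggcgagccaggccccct
Tie1 (chr4:118489850-118490099, minus strand): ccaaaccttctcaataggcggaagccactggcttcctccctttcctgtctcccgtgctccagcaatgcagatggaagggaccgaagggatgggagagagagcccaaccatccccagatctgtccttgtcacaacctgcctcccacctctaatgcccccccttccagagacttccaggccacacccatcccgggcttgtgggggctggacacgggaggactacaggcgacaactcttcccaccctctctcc
Fgd5 (chr6:91978715-91978964, plus strand): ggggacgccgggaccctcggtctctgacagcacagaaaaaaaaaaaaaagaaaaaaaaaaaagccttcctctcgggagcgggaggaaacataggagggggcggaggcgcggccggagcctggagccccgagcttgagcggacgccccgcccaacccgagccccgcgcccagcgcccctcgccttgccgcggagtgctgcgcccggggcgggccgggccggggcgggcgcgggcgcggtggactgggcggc
Sult1a1 (chr7:126676419-126676668, minus strand): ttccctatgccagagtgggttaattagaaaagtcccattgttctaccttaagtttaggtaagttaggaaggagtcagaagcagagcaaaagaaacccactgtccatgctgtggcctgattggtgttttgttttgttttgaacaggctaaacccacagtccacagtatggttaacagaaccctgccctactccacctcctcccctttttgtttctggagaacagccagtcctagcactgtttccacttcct
Cd34 (chr1:194938571-194938820, plus strand): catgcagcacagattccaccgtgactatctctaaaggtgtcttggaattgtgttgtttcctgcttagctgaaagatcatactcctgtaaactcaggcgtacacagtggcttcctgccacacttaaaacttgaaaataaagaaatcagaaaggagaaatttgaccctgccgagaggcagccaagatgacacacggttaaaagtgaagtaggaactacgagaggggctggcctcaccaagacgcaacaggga
Cd48 (chr1:171681742-171681991, plus strand): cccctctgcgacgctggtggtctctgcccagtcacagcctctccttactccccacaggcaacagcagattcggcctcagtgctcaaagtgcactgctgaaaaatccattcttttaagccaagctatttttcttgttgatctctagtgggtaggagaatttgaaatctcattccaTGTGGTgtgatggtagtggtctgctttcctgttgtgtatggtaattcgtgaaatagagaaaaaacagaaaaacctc

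The GC content of these windows was 61.6% for Procr, 60.4% for Tie1, 71.6% for Fgd5, 45.6% for Sult1a1, 46.4% for Cd34 and 46.0% for Cd48, against a median of 52.4% over 32851 RefSeq windows of the same length. The RefSeq starts of Procr, Tie1 and Fgd5 lie 100, 212 and 87 bases downstream of the start of the GENCODE gene, so part of each window is transcribed in a GENCODE model. Of the members, 9 had a window in the table. The letters searched on both strands were CCGGAA for the core bound by ETS factors, AGATAA for GATA factors, TGTGGT for RUNX factors, TTCNNNGAA for STAT dimers and CAGCTG for an E-box, and each printed window held at most 1 match. The E-box was found in Procr and Robo4, 2 of 9 windows, and in 13% of all windows. The RUNX letters were found in Cd48, 1 of 9 windows, and in 14% of all windows. The ETS, GATA and STAT letters were found in 0 of 9 windows, and in 12%, 9.99% and 7.02% of all windows.

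The deposited tables give each gene's fold change against vehicle and its error, and no value per library. The level of a gene in each group was solved from these errors and is given as normalised reads, that is, reads after division by the library's size factor, with a 95% interval from the modelled spread. Whether 1 or all 3 libraries of a group carry a change cannot be read from such levels. The implied depth was 25.1 to 30.1 M reads in genes for the palbociclib libraries, 21.4 to 34.1 M for ruxolitinib, 18.2 to 44.7 M for the combination and 31.5 to 34.8 M for vehicle. The genes of the sort were well measured: Kit was at 15506, 14933 and 19878 normalised reads with palbociclib, ruxolitinib and the combination, and at 14277 in vehicle. Ly6a, which encodes Sca-1, was at 2102, 1165 and 3557 normalised reads with palbociclib, ruxolitinib and the combination, and at 1004 in vehicle. Ly6a rose with palbociclib and in the combination, for which the authors' deposited table listed 1.07 ± 0.35 and 1.83 ± 0.35 on the log2 scale (standard error, adjusted p = 0.0322 and 1.09e-05), and Kit rose in the combination by 0.48 ± 0.18 (adjusted p = 0.0349). Kit with palbociclib, at 0.12 ± 0.18, and Ly6a and Kit with ruxolitinib, at 0.21 ± 0.35 and 0.06 ± 0.18 in the authors' deposited table, did not pass (adjusted p = 0.769, 0.893 and 0.941). The part of the gate genes in the results was not tested. Of 15 markers of endothelium, Cdh5 and Cldn5 had base means, the mean over all libraries of the fit, of 6.58 and 2.01 normalised reads. Others were higher: 5 of the 15 had a base mean of at least 50, with Pecam1 at 3639. Kdr and Flt1, named after their values were seen, were at 48.4 and 27.5. The modelled level of Cdh5 was 4.15 with palbociclib, 10.1 with ruxolitinib, 1.22 in the combination and 1.47 in vehicle. In sorted bulk RNA, a change in the number of cells of one type cannot be told apart from a change in RNA per cell.

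Against vehicle, 6 of the 10 genes rose in the combination, 5 with palbociclib and 3 with ruxolitinib, and 0 fell in any of the 3 comparisons. Procr, Tie1 and Fgd5 rose in all 3, Esam and Sult1a1 rose with palbociclib and in the combination, and Robo4 rose in the combination. Tek, Slamf1, Cd34 and Cd48 passed in none. All 10 genes passed the authors' filter on low values in every table. Among all genes tested, 4.98% were called higher and 3.64% lower with palbociclib, 0.932% higher and 2.03% lower with ruxolitinib, and 12.9% higher and 10.2% lower in the combination. The median log2 fold change of the 10 genes was 1.16, 0.33 and 1.32 for palbociclib, ruxolitinib and the combination, beside 0.02, 0.01 and 0.06 over all genes tested. The 3 comparisons share the vehicle libraries.

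**Figure D1:**
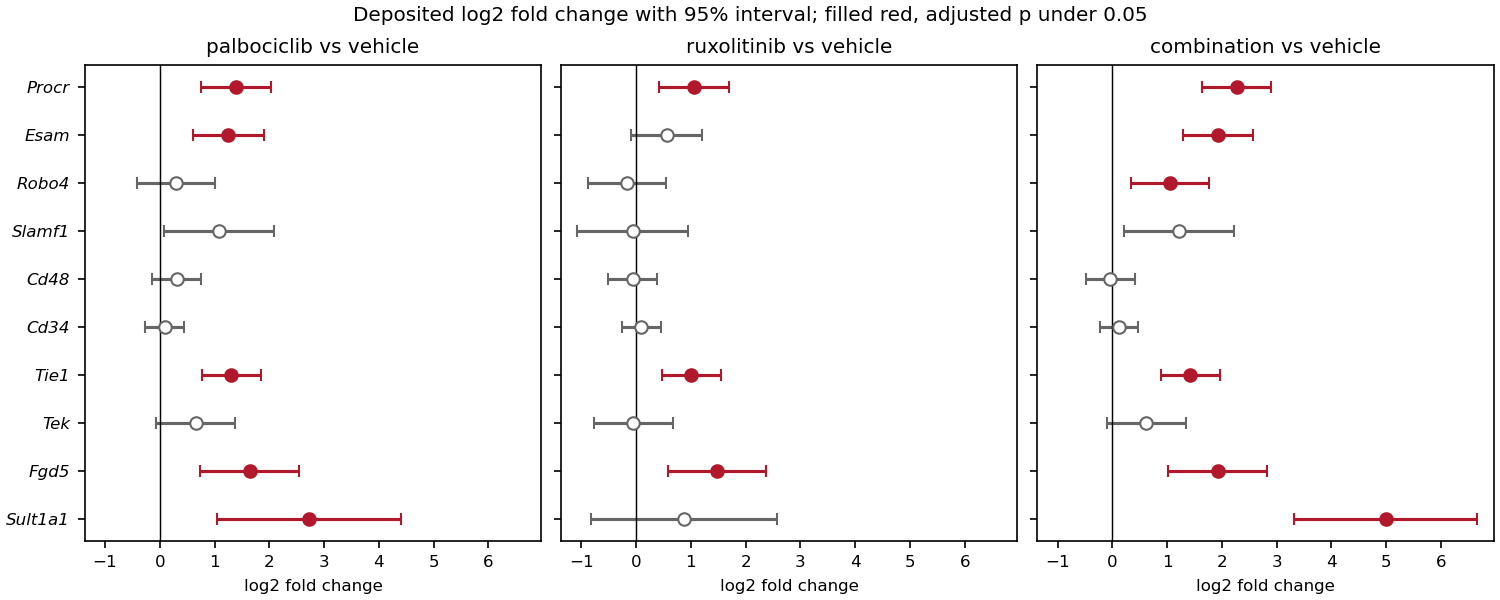
Deposited log2 fold change of each gene (x axis) against vehicle with its 95% interval, in 1 panel per treatment; filled red points passed at an adjusted p under 0.05. Procr, Tie1 and Fgd5 are filled in all 3 panels, and Cd34 and Cd48 lie near 0 in each with narrow intervals.

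Procr encodes the endothelial protein C receptor, which marks mouse stem cells within the LSK gate. Its gene lies on chromosome 2 from 155751117 to 155755471 (GRCm38, plus strand). Its modelled level was 745 normalised reads with palbociclib (95% interval 547 to 1016), 592 with ruxolitinib (434 to 808), 1373 in the combination (1008 to 1869) and 285 in vehicle (208 to 389). None of the treated intervals overlapped that of vehicle, and the combination was the highest of the 4 groups. The authors' deposited table put the log2 fold change of Procr at 1.39 ± 0.32 with palbociclib (standard error, adjusted p = 0.00109), 1.06 ± 0.32 with ruxolitinib (adjusted p = 0.0433) and 2.27 ± 0.32 in the combination (adjusted p = 1.04e-09). Without the authors' filter on low values, the ruxolitinib call was lost (adjusted p = 0.0947).

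Esam encodes an adhesion molecule of endothelial cells, platelets and stem cells, and lies on chromosome 9 from 37528078 to 37538319. Its modelled level was 1111 normalised reads with palbociclib (811 to 1520), 685 with ruxolitinib (500 to 939), 1767 in the combination (1291 to 2417) and 466 in vehicle (340 to 639). The ruxolitinib interval overlapped that of vehicle, and those of palbociclib and the combination did not. The log2 fold change of Esam in the authors' deposited table was 1.25 ± 0.33 with palbociclib (adjusted p = 0.0048) and 1.92 ± 0.33 in the combination (adjusted p = 6.36e-07). With ruxolitinib the authors' deposited table gave 0.56 ± 0.33, which did not pass (adjusted p = 0.504).

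Robo4 encodes a roundabout receptor of endothelium and stem cells, known in mouse for a part in holding stem cells in the marrow. It lies 113.0 kb from Esam on chromosome 9, from 37401897 to 37415115. The modelled level of Robo4 was 395 normalised reads with palbociclib (279 to 559), 286 with ruxolitinib (201 to 406), 660 in the combination (467 to 935) and 320 in vehicle (226 to 454). Only the combination interval lay apart from that of vehicle. The authors' deposited table put the log2 fold changes at 0.30 ± 0.36 with palbociclib (adjusted p = 0.701), -0.16 ± 0.36 with ruxolitinib (adjusted p = 0.929) and 1.05 ± 0.36 in the combination (adjusted p = 0.0225).

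Slamf1 and Cd48 encode the pair of SLAM receptors whose presence and absence define the most used stem cell gate. They are neighbours on chromosome 1, with 61.9 kb between the end of Cd48 (171682009 to 171705258) and the start of Slamf1 (171767127 to 171801184). Slamf1 was at 814 normalised reads with palbociclib (498 to 1333), 370 with ruxolitinib (226 to 607), 897 in the combination (548 to 1469) and 387 in vehicle (236 to 633). Its interval in vehicle overlapped those of all 3 treated groups. The log2 fold change of Slamf1 in the authors' deposited table was 1.08 ± 0.51 with palbociclib alone, -0.06 ± 0.51 with ruxolitinib alone and 1.22 ± 0.51 in the combination (adjusted p = 0.187, 0.983 and 0.069), and none passed. The unadjusted p of the combination was 0.0179.

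Cd48, whose protein is absent from the most primitive stem cells and present on multipotent progenitors, was at 4235 normalised reads with palbociclib (3401 to 5274), 3277 with ruxolitinib (2631 to 4082), 3336 in the combination (2678 to 4156) and 3417 in vehicle (2743 to 4255). All 4 intervals overlapped. In the authors' deposited table its log2 fold change was 0.31 ± 0.23 with palbociclib alone, -0.06 ± 0.23 with ruxolitinib alone and -0.03 ± 0.23 in the combination (adjusted p = 0.46, 0.96 and 0.935). The 95% interval of the combination fold ran from -0.48 to 0.41 on the log2 scale in the authors' deposited table. It covers only counting error and modelled spread, and sets no firm limit on a fall.

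Cd34 encodes a sialomucin of progenitors and endothelium and lies on chromosome 1 from 194938819 to 194961279. It was the most abundant of the 10 genes in normalised reads, with a modelled 22440 with palbociclib (18870 to 26686), 22522 with ruxolitinib (18938 to 26783), 22906 in the combination (19261 to 27240) and 21071 in vehicle (17719 to 25058). The 4 levels were close and their intervals overlapped. The log2 fold change of Cd34 in the authors' deposited table was 0.09 ± 0.18, 0.10 ± 0.18 and 0.12 ± 0.18 with palbociclib, ruxolitinib and the combination (adjusted p = 0.838, 0.913 and 0.671). Its 95% interval in the combination ran from -0.23 to 0.47 in the authors' deposited table. The annotation places an antisense gene, Gm16897, over 148 bases of its exons, and reads from the pair may not be told apart without strand.

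**Figure D2:**
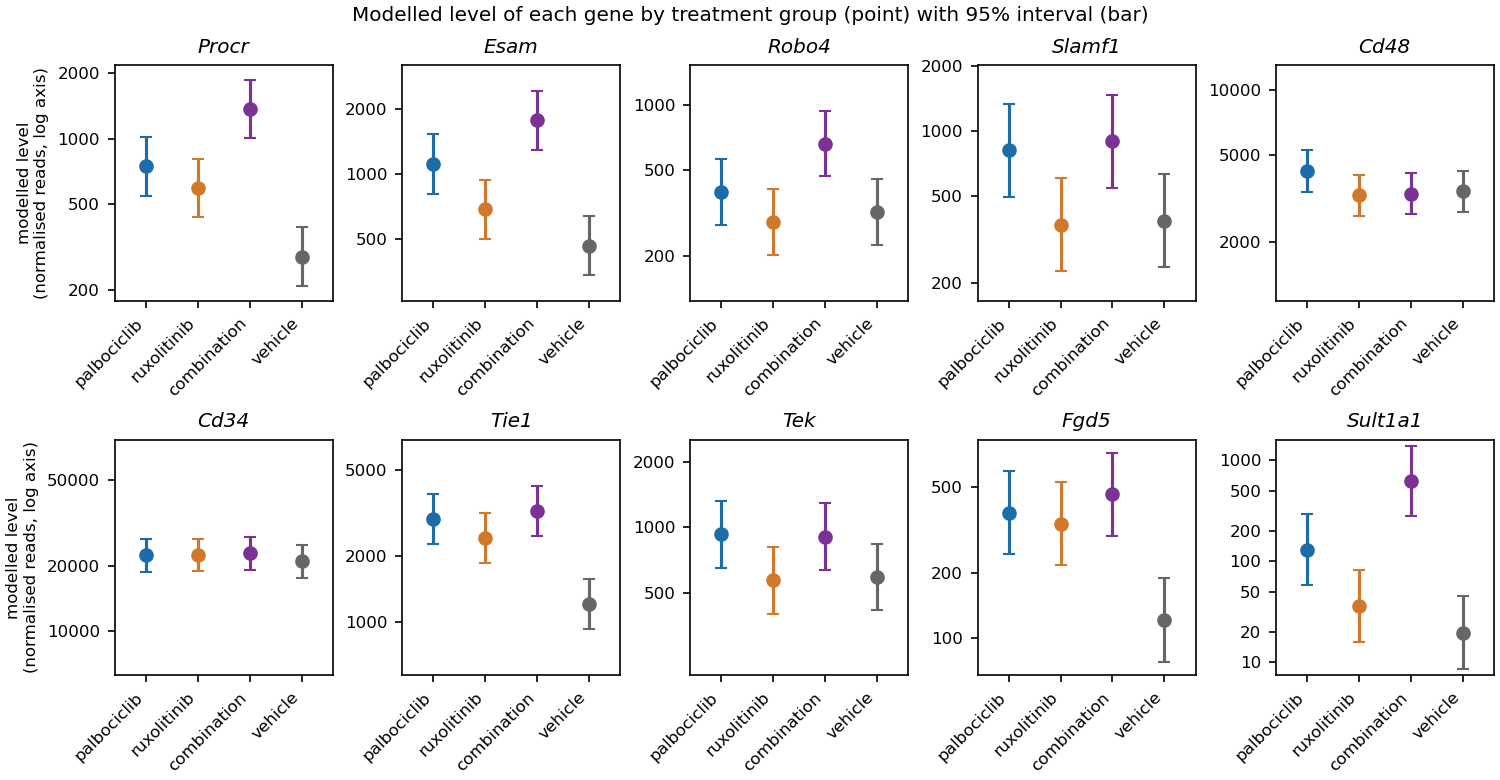
Modelled level (normalised reads, log axis) of each gene in the palbociclib, ruxolitinib, combination and vehicle groups, as a point with its 95% interval. Procr, Tie1 and Fgd5 stand above vehicle in every treated group, Sult1a1 spans the widest range with 627 normalised reads in the combination and 19.7 in vehicle, and Cd34 and Cd48 are level.

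Tie1 and Tek encode the receptor tyrosine kinases of the angiopoietin system; Tek binds angiopoietins, and Tie1 modulates it. Tie1 lies on chromosome 4 from 118471191 to 118490061 (minus strand) and Tek on the same chromosome from 94739289 to 94874976 (plus strand). Tie1 was at 2985 normalised reads with palbociclib (2288 to 3895), 2431 with ruxolitinib (1863 to 3172), 3238 in the combination (2482 to 4226) and 1207 in vehicle (924 to 1577). All 3 treated intervals lay above that of vehicle and overlapped each other. The authors' deposited table put the log2 fold change of Tie1 at 1.31 ± 0.28 with palbociclib (adjusted p = 0.000238), 1.01 ± 0.28 with ruxolitinib (adjusted p = 0.0176) and 1.42 ± 0.28 in the combination (adjusted p = 1.86e-05). Tie1 was the member whose ruxolitinib call held without the filter on low values.

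Tek was at 928 normalised reads with palbociclib (652 to 1321), 570 with ruxolitinib (400 to 813), 908 in the combination (637 to 1293) and 590 in vehicle (414 to 841). Its 4 intervals overlapped. The authors' deposited table put the log2 fold changes at 0.65 ± 0.37, -0.05 ± 0.37 and 0.62 ± 0.37 with palbociclib, ruxolitinib and the combination (adjusted p = 0.289, 0.981 and 0.219), so Tek did not pass. The difference in response between Tie1 and Tek was not tested.

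Fgd5 encodes an exchange factor of the small GTPase CDC42, and its promoter drives stem cell reporters in mouse. It lies on chromosome 6 from 91978878 to 92076004. Fgd5 was at 380 normalised reads with palbociclib (245 to 589), 339 with ruxolitinib (218 to 525), 462 in the combination (298 to 716) and 122 in vehicle (78.0 to 190). The treated intervals overlapped each other and stood above that of vehicle. The log2 fold change of Fgd5 in the authors' deposited table was 1.64 ± 0.46 with palbociclib (adjusted p = 0.00946), 1.48 ± 0.46 with ruxolitinib (adjusted p = 0.0471) and 1.92 ± 0.46 in the combination (adjusted p = 0.000632). Without the filter on low values its ruxolitinib call was lost (adjusted p = 0.103).

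Sult1a1, a cytosolic phenol sulfotransferase and one of the transcripts enriched in mouse stem cells, lies on chromosome 7 from 126672865 to 126676432. Its modelled level was 131 normalised reads with palbociclib (58.3 to 292), 36.2 with ruxolitinib (15.9 to 82.2), 627 in the combination (281 to 1398) and 19.7 in vehicle (8.55 to 45.4). The ruxolitinib and vehicle intervals overlapped, and those of palbociclib and the combination stood above that of vehicle. In the authors' deposited table its log2 fold change was 2.73 ± 0.85 with palbociclib (adjusted p = 0.0242) and 4.99 ± 0.85 in the combination (adjusted p = 6.71e-07). With ruxolitinib the authors' deposited table gave 0.88 ± 0.86 (adjusted p = 0.774). Without the filter on low values its palbociclib call was lost (adjusted p = 0.0528). The exons of Sult1a1 share 61 bases with those of Sgf29 on the other strand.

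The size of the modelled spread differed among the 10 genes. Each gene has 1 dispersion for all 24 libraries of the authors' fit, so these spreads, and the intervals and tests built on them, rest partly on the 12 libraries not analysed here. The square root of the dispersion, which approximates the relative spread between libraries beyond counting, was 15.3% for Cd34, 19.3% for Cd48, 23.4% for Tie1, 27.1% for Procr, 27.6% for Esam, 30.4% for Robo4 and 31.1% for Tek. It was 38.4% for Fgd5, 43.4% for Slamf1 and 70.7% for Sult1a1. In the combination, Robo4 passed at 1.05 ± 0.36 in the authors' deposited table, while Slamf1, with the larger spread, did not pass at 1.22 ± 0.51. Per kilobase of exon, the levels in vehicle were 2890 normalised reads for Cd34, 2873 for Cd48, 246 for Tie1, 162 for Esam, 140 for Procr, 125 for Tek, 62.8 for Slamf1, 60.4 for Robo4, 19.3 for Fgd5 and 13.1 for Sult1a1. In that order, the intervals of neighbouring genes overlapped except between Cd48 and Tie1 and between Robo4 and Fgd5. In the combination, the levels per kilobase were 676 normalised reads for Procr, 659 for Tie1, 616 for Esam and 416 for Sult1a1, and the intervals of these 4 genes overlapped.

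The drug arms were next set against each other. The 4 Y-linked genes summed to 5.35 normalised reads in the combination and 10.9 with palbociclib, and to 2670 with ruxolitinib. Where the combination or palbociclib is compared with ruxolitinib, a difference in the sex of the cells cannot be told apart from the drugs. Relative to ruxolitinib alone, Procr, Esam, Robo4 and Sult1a1 were higher in the combination, 4 of the 10 genes, and 0 were lower, where 12.6% of all genes tested were called higher and 10.7% lower. The test was a Wald test on group variances solved from the standard errors, adjusted over 12083 genes with a base mean of at least 50. The log2 difference was 1.21 ± 0.32 for Procr, 1.37 ± 0.33 for Esam and 1.21 ± 0.36 for Robo4 (standard error, adjusted p = 0.00258, 0.000769 and 0.00823). For Sult1a1 it was 4.12 ± 0.84, a 17.3-fold difference (95% interval 5.50 to 54.6, adjusted p = 7.01e-05). Slamf1 was at 1.28 ± 0.51 and did not pass (adjusted p = 0.0535). With the deposited errors taken as independent, which counts the vehicle error more than once, Sult1a1 alone passed (adjusted p = 0.0396), with Procr, Esam and Robo4 at adjusted p = 0.122, 0.0823 and 0.175.

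Between the combination and palbociclib alone, 0 of the 10 genes passed in the same Wald test, where 1.45% of all genes were called higher and 0.761% lower. An unadjusted p under 0.05 was reached by 4 of them, each higher in the combination. The share of all genes under that unadjusted p was not computed, so this count has nothing to be set against. Procr was at 0.88 ± 0.32 (adjusted p = 0.101), Sult1a1 at 2.26 ± 0.84 (adjusted p = 0.106), and Esam and Robo4 at 0.67 ± 0.33 and 0.74 ± 0.36 (adjusted p = 0.226 for both). The 95% interval of the Procr difference ran from 0.25 to 1.51 and that of Tie1 (0.12 ± 0.28) from -0.43 to 0.66 on the log2 scale.

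Palbociclib and ruxolitinib alone were also compared directly, and 0 of the 10 genes passed, where 1.17% of all genes were called higher with palbociclib and 0.215% lower. By unadjusted p, 3 genes were under 0.05, all higher with palbociclib: Slamf1 at 1.14 ± 0.51, Esam at 0.70 ± 0.33 and Sult1a1 at 1.85 ± 0.85 (adjusted p = 0.358, 0.39 and 0.371). Here too the share of all genes under that unadjusted p was not computed. Esam and Sult1a1 passed against vehicle with palbociclib and not with ruxolitinib, but the difference between these drugs did not pass for either gene. Fgd5 and Tie1, which rose with both drugs, were at 0.17 ± 0.46 and 0.30 ± 0.28, with 95% intervals from -0.73 to 1.06 and from -0.25 to 0.84.

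Whether the combination departed from the summed log2 fold changes of the single drugs was tested in the same way, and 0 of the 10 genes passed, where 1.91% of all genes were above the sum and 0.877% below it. Again, the share of all genes at an unadjusted p under 0.05 was not computed. Of the 10, 1 gene, Tie1, had an unadjusted p under 0.05 and lay below the sum, at -0.89 ± 0.39 (adjusted p = 0.186). Fgd5 was also below it, at -1.19 ± 0.65 (adjusted p = 0.299), and Robo4 and Sult1a1 were above it, at 0.91 ± 0.51 and 1.39 ± 1.20 (adjusted p = 0.325 and 0.553). Procr and Esam were at -0.18 ± 0.46 and 0.11 ± 0.46 (adjusted p = 0.875 and 0.926). The interval of Sult1a1 ran from -0.97 to 3.74 on the log2 scale and was the widest of the 10.

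**Figure D3:**
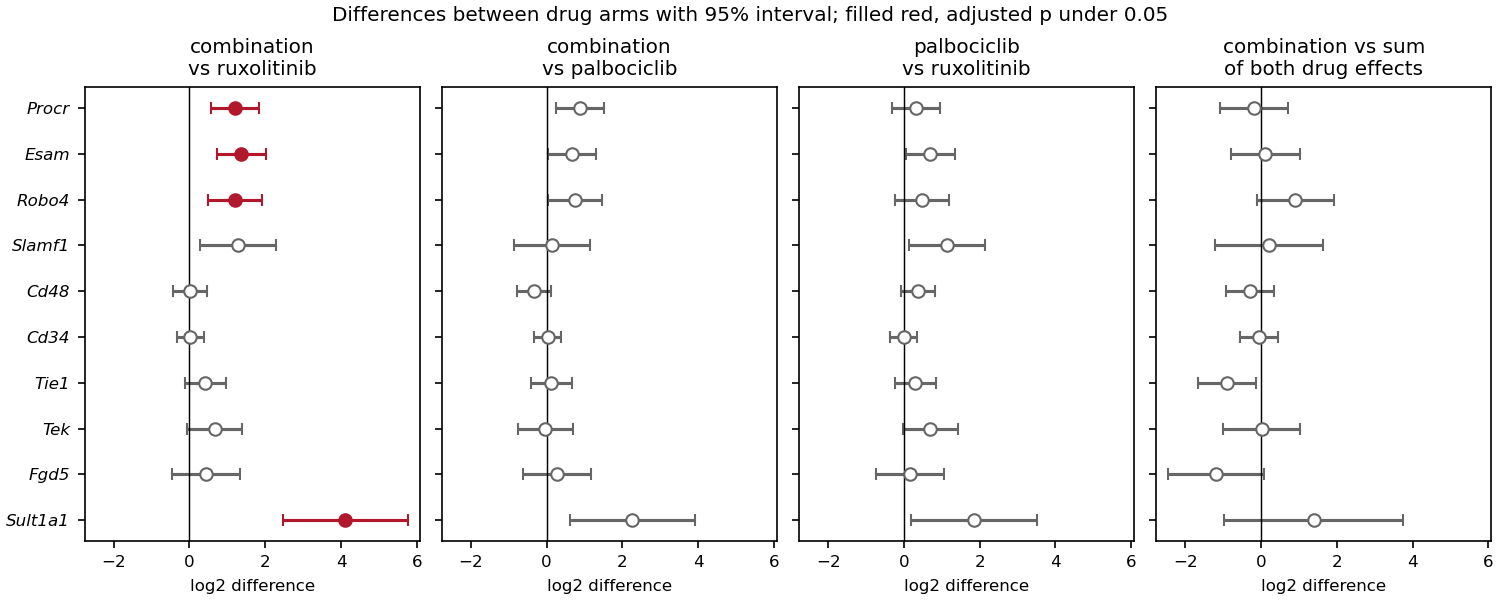
Log2 difference of each gene (x axis) between pairs of drug arms and between the combination and the sum of both single-drug effects, with 95% intervals; filled red points passed at an adjusted p under 0.05. Procr, Esam, Robo4 and Sult1a1 are filled in the panel of combination against ruxolitinib, and no point is filled in the other 3 panels.

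The partners and relatives of these genes were read from lists of genes tied to them. Some listed genes had no adjusted p and were not tested. Among all genes tested, 12.9% were called higher and 10.2% lower in the combination. The shares were 4.98% and 3.64% with palbociclib and 0.932% and 2.03% with ruxolitinib. Among 6 genes of the angiopoietin pathway, 2 rose in the combination, 2 with palbociclib and 1 with ruxolitinib, and 0 fell in any comparison. Of these 6, 4 were tested in the combination and 2 with each single drug. Angpt1, whose product activates the Tek receptor, was at 16106 normalised reads with palbociclib, 13201 with ruxolitinib, 19210 in the combination and 9477 in vehicle. The authors' deposited table listed Angpt1 at 0.77 ± 0.19 with palbociclib and 1.02 ± 0.19 in the combination, where it passed (adjusted p = 0.0031 and 8.96e-06), and at 0.48 ± 0.19 with ruxolitinib, where it did not (adjusted p = 0.194). Dok2, an adaptor that binds the Tek receptor, was at 1213 normalised reads with palbociclib, 1190 with ruxolitinib, 1149 in the combination and 717 in vehicle. It rose in every comparison, by 0.76 ± 0.19, 0.73 ± 0.19 and 0.68 ± 0.19 for palbociclib, ruxolitinib and the combination as listed by the authors' deposited table (adjusted p = 0.00252, 0.00924 and 0.00349). The other 4 genes of the list, Angpt2, Angpt4, Ptprb and Grb14, had base means of 2.60 normalised reads or less.

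Around protein C and the thrombin receptors, 8 of 10 genes were tested in the combination and 7 with each single drug. Of these, 1 rose in each comparison and 0 fell. That gene was F2rl3, which encodes the thrombin receptor PAR4, at 1888 normalised reads with palbociclib, 1713 with ruxolitinib, 2177 in the combination and 1084 in vehicle. All 3 treated levels of F2rl3 stood above vehicle, and the authors' deposited table listed 0.80 ± 0.13, 0.66 ± 0.13 and 1.01 ± 0.13 for palbociclib, ruxolitinib and the combination (adjusted p = 1.43e-06, 0.000388 and 7.92e-11). Pros1, which encodes protein S, the cofactor of activated protein C, was listed by the authors' deposited table at -0.70 ± 0.36 in the combination and did not pass (adjusted p = 0.147).

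Some relatives of Esam rose beside it. Of 6 such genes, 5 tested in each comparison, 2 rose with palbociclib and 2 in the combination, and 0 passed with ruxolitinib. F11r, which encodes junctional adhesion molecule A, was at 822 normalised reads with palbociclib, 672 with ruxolitinib, 1203 in the combination and 395 in vehicle. Jam3, which encodes junctional adhesion molecule C, was at 72.3 normalised reads with palbociclib, 50.8 with ruxolitinib, 212 in the combination and 13.2 in vehicle. Both were highest in the combination, where the authors' deposited table listed 1.61 ± 0.28 for F11r and 4.01 ± 0.73 for Jam3 (adjusted p = 1.21e-06 and 4.17e-06). For palbociclib the authors' deposited table listed 1.06 ± 0.28 for F11r and 2.45 ± 0.74 for Jam3 (adjusted p = 0.00567 and 0.0177).

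Other SLAM genes were called in both directions, with 2 of 10 higher and 1 lower in the combination and 0 called with either single drug. Of the 10, 9 were tested in the combination and 8 with each single drug. In the combination, 12.9% of all genes tested were called higher and 10.2% lower. Cd84 and Slamf7 rose in the combination, by 0.61 ± 0.14 and 3.87 ± 1.10 as the authors' deposited table has it (adjusted p = 0.000449 and 0.00478). Slamf7 is also expressed by plasma cells. Ly9, a further SLAM receptor gene, fell there, and the authors' deposited table listed it at -0.81 ± 0.28 (adjusted p = 0.0223).

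Among 10 SLIT, ROBO and associated genes, 9 were tested in the combination and 7 with each single drug. Of these, 2 rose and 1 fell in the combination, and 0 were called with either single drug. The shares over all genes tested in the combination were 12.9% higher and 10.2% lower. The genes that rose were Robo1, a roundabout receptor gene, and Unc5b, a netrin receptor gene, with base means of 44.0 and 10.2 normalised reads, both named after their values were seen. The authors' deposited table listed 2.71 ± 0.88 for Robo1 and 3.95 ± 1.31 for Unc5b in the combination (adjusted p = 0.0145 and 0.017). The gene that fell was Srgap2, a GTPase activator that binds roundabout receptors, listed by the authors' deposited table at -0.48 ± 0.16 (adjusted p = 0.0221). Among 6 relatives and ligands of CD34, 0 rose and 2 fell in the combination. One of them was Crkl, an adaptor, for which the authors' deposited table listed -0.59 ± 0.19 (adjusted p = 0.0125).

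Relatives of Fgd5 and of Sult1a1 were not called higher in any comparison with vehicle. Of 6 genes, the FGD relatives with their target Cdc42, 1 fell in the combination, namely Fgd6, listed by the authors' deposited table at -2.67 ± 0.61 (adjusted p = 0.000327). Of 8 genes of sulfation, 4 were tested in the combination and 3 with each single drug. Of the 8, 1 fell in each comparison and 2 were listed at 0. The one that fell was Papss2, which makes the sulfate donor used by sulfotransferases, at 119 normalised reads with palbociclib, 141 with ruxolitinib, 65.7 in the combination and 430 in vehicle. All 3 treated levels of Papss2 were below vehicle, and the authors' deposited table listed -1.85 ± 0.43, -1.61 ± 0.42 and -2.71 ± 0.43 for palbociclib, ruxolitinib and the combination (adjusted p = 0.000917, 0.0118 and 1.01e-07).

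Of 18 further surface genes of stem cells, 3 rose and 2 fell with palbociclib, 0 rose and 1 fell with ruxolitinib, and 8 rose and 1 fell in the combination. Their median log2 fold change was 0.33 with palbociclib alone, 0.06 with ruxolitinib alone and 0.61 in the combination. Neo1, which encodes neogenin, was at 341 normalised reads with palbociclib, 73.2 with ruxolitinib, 467 in the combination and 27.9 in vehicle. Neo1 rose with palbociclib and in the combination, for which the authors' deposited table listed 3.61 ± 0.85 and 4.07 ± 0.85 (adjusted p = 0.00114 and 6.87e-05).

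Among surface genes of multipotent and committed progenitors, Csf1r, Fcgr3, Ccr2 and Cx3cr1, all genes of the myeloid and monocyte lineage, fell in each comparison. Of 13, 2 rose and 4 fell with palbociclib, 0 rose and 4 fell with ruxolitinib, and 1 rose and 4 fell in the combination. The median log2 fold change was -1.03, -0.75 and -0.72 for palbociclib, ruxolitinib and the combination. Csf1r, the receptor gene for macrophage colony-stimulating factor, was at 341 normalised reads with palbociclib, 422 with ruxolitinib, 269 in the combination and 1595 in vehicle. The chemokine receptor genes Ccr2 and Cx3cr1, of monocytes and their precursors, fell with all 3 treatments as well, and for the combination the authors' deposited table listed -2.57 ± 0.35 for Csf1r, -2.55 ± 0.50 for Ccr2 and -3.50 ± 0.40 for Cx3cr1 (adjusted p = 8.67e-11, 2.11e-05 and 4e-15). Cd27, a marker of multipotent progenitors, rose in the combination and with palbociclib, and Csf3r, the granulocyte colony-stimulating factor receptor gene, rose with palbociclib, listed by the authors' deposited table at 0.54 ± 0.18 (adjusted p = 0.0372). Flt3, a further marker of multipotent progenitors, and Cd48 passed in none of these comparisons.

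**Figure D4:**
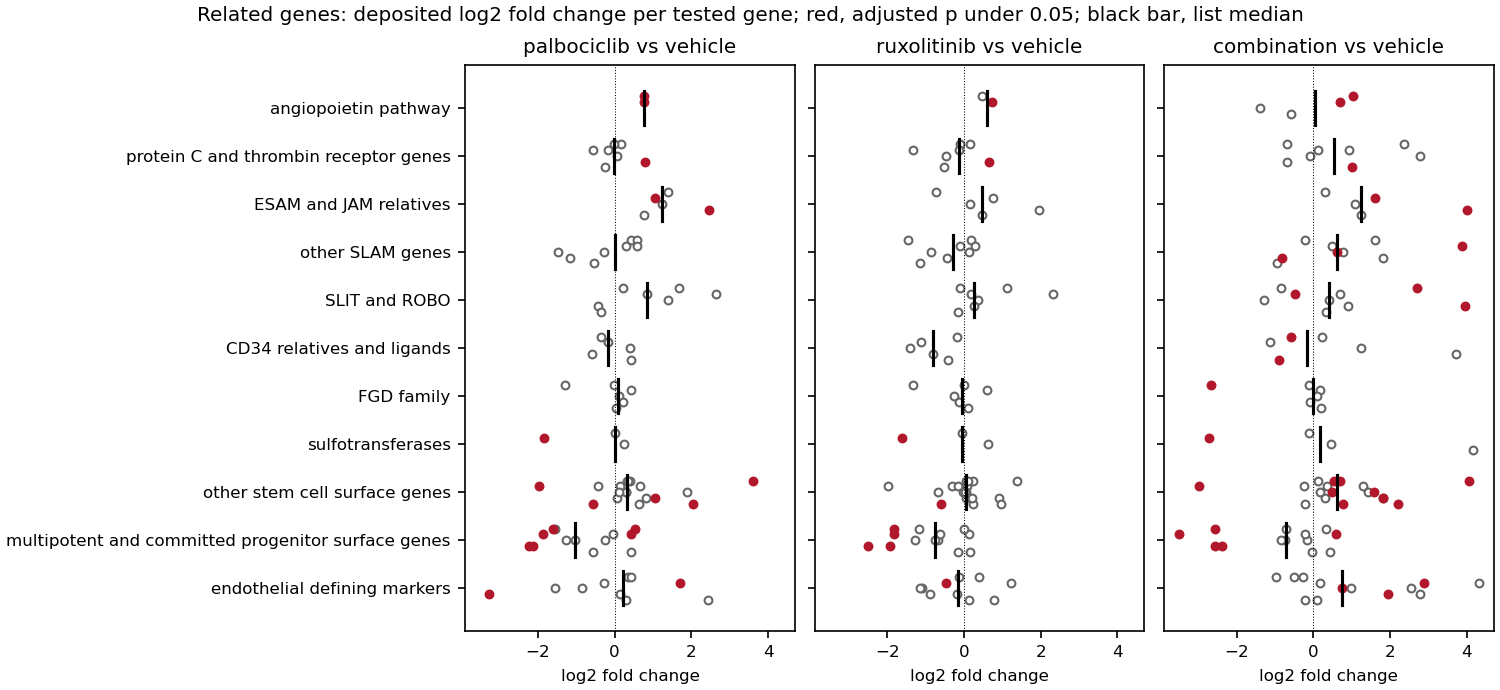
Deposited log2 fold change (x axis) of each tested gene in the lists of partners and relatives, in 1 panel per treatment against vehicle; red points passed at an adjusted p under 0.05 and the black bar is the list median. The median of the stem cell surface list lies above 0 in the combination (0.61) and that of the progenitor surface list below it (-0.72).

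Of 15 markers of endothelium, 13 were tested in the combination and 10 with each single drug. Of these, 1 rose and 1 fell with palbociclib, 0 rose and 1 fell with ruxolitinib, and 3 rose and 0 fell in the combination. Emcn, which encodes the endomucin of vessels and stem cells, was at 266 normalised reads with palbociclib, 189 with ruxolitinib, 311 in the combination and 81.4 in vehicle. Egfl7, a secreted factor of vessels and early blood cells, was at 1681 normalised reads with palbociclib, 1744 with ruxolitinib, 2219 in the combination and 1329 in vehicle. In the combination the authors' deposited table listed 1.93 ± 0.47 for Emcn and 0.74 ± 0.21 for Egfl7 (adjusted p = 0.00087 and 0.00536). The third marker that rose there was Ramp2, which was below the base mean of 50 used for naming. Plvap, which encodes a diaphragm protein of fenestrated vessels, was at 78.6 normalised reads with palbociclib, 63.1 with ruxolitinib, 72.1 in the combination and 141 in vehicle, and passed in no comparison with vehicle. For Plvap the authors' deposited table listed -0.84 ± 0.41, -1.16 ± 0.41 and -0.97 ± 0.41 for palbociclib, ruxolitinib and the combination (adjusted p = 0.198, 0.108 and 0.0724). The markers that fell were Flt4 with palbociclib and Pecam1 with ruxolitinib, for which the authors' deposited table listed -3.26 ± 0.86 and -0.47 ± 0.15 (adjusted p = 0.00562 and 0.0428). Summed over the 10 endothelial markers with a base mean of at least 10, the level was 7119 normalised reads with palbociclib, 6449 with ruxolitinib, 7801 in the combination and 7092 in vehicle. Pecam1 and Icam2, which blood cells also express, hold most of that sum.

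Markers of mature blood cells were present and differed between the groups. The 8 plasma cell markers summed to 14892 normalised reads with palbociclib, 3127 with ruxolitinib, 264918 in the combination and 4657 in vehicle. Jchain alone held 252586 of the sum in the combination and 11104.5 of that with palbociclib. All 8 rose in the combination. The 8 mature granulocyte markers summed to 6637 with palbociclib, 69.7 with ruxolitinib, 1307 in the combination and 184 in vehicle. Of these, 7 rose with palbociclib and 5 in the combination. Among all genes tested, 4.98% were called higher with palbociclib and 12.9% in the combination. The 8 erythroid markers summed to 3555 with palbociclib, 1707 with ruxolitinib, 10933 in the combination and 2858 in vehicle. Of these, 5 rose in the combination, 0 passed with palbociclib and 1, Klf1, fell with ruxolitinib. Globin genes held most of the combination sum, with Hbb-bs at 3494 and Hba-a1 at 2974. Klf1 was below vehicle (1199) throughout, at 435, 320 and 604 with palbociclib, ruxolitinib and the combination. Epor was too, at 338, 287 and 414 beside 692 in vehicle, and did not pass. Genes of this list are named after their values were seen. The 6 megakaryocyte and platelet markers with a base mean of at least 10 summed to 15689 with palbociclib, 10480 with ruxolitinib, 18832 in the combination and 8530 in vehicle, and the 4 measured T and B lineage markers to 615 with palbociclib, 530 with ruxolitinib, 2251 in the combination and 574 in vehicle. Megakaryocytes and platelets also express Esam. The 4 Y-linked genes summed to 10.9 with palbociclib, 2670 with ruxolitinib, 5.35 in the combination and 1081 in vehicle, and all 4 were called lower with palbociclib and in the combination. The labels give the sex of neither donors nor recipients, and a difference in the sex of the cells cannot be told apart from these treatments. The part of the differences in mature cell markers in the rises of Procr, Esam, Robo4, Tie1, Fgd5 and Sult1a1 was not tested.

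Genes with folds near those of Procr and of Cd48 were sought by the Euclidean distance over the 3 deposited log2 fold changes. The search covered only genes with a base mean of at least 50 that passed in the combination, which Cd48 itself did not, so genes that did not pass and may lie nearer to Cd48 were not searched. Nearest to Procr among 3651 genes were Mir155hg, Gm50321 and Trib1, at 0.19, 0.25 and 0.25 on the log2 scale. For Cd48, the smallest distances among the 3652 genes searched were those of Casd1, Commd7 and Tdrd3, at 0.32, 0.33 and 0.34. The 3 folds of a gene share the vehicle libraries, and the distances carry no test.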

How the data were processed

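PolyA RNA of sorted LSK cells was sequenced in 12 libraries. Per the submitters' processing notes, reads went through fastp 0.20.0, HISAT2 2.0.1, SAMtools 1.10 and featureCounts 2.0.0 on GRCm38, and DESeq2 without a version; settings are not given in the sources used here. Per the labels' protocols, the kit was NEBNext Ultra II, and no strand setting is given.

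The authors deposited 3 DESeq2 tables over 55487 genes, each of 1 treatment against vehicle. The deposited base mean, a signal, averages a gene's counts after division by size factors. The authors' log2 fold change came with its standard error. The score is the Wald statistic the authors deposited, and the p-value and adjusted p-value (Benjamini-Hochberg, after filtering low values) are theirs. A gene is said to have risen or fallen when the adjusted p was under 0.05.

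Size factors of the 24 libraries of the authors' fit, 12 of them not analysed here, were read from genes with the base mean of 1 read. The vehicle level and dispersion of each gene were then solved from its 3 standard errors, to within 1e-06 for 12083 of 12085 genes with a base mean of at least 50. Differences between arms were tested by a 2-sided Wald test with these variances, with Benjamini-Hochberg adjustment over those genes. Counting error and modelled spread are all that the intervals cover. The methods were tested on simulated data, where false calls made up more than the nominal share of calls for the combination against ruxolitinib and against palbociclib. Python 3.11.15, numpy 2.4.6, pandas 2.3.3, scipy 1.17.1 and matplotlib 3.10.9 were used. Coordinates and exon lengths are from GENCODE mouse release M21 (GRCm38), which held 55141 of the identifiers.

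The genes and lists were chosen with earlier results of these data known. Named beside the 10 genes were up to 3 genes per list with the smallest combination p at a base mean of at least 50, the sort genes, and the 3 genes closest to Procr and to Cd48; others are named to complete counts or as partners. Some genes of the lists are counted but not reported here by name.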

Additional observations from a re-analysis of the deposited data

How the results depend on the processing

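Of 31 recomputed counts of genes that passed, 27 stayed within 1.5 times the reported count. The exceptions were the ruxolitinib count of 3, which became 0 at an adjusted p under 0.01 and 1 both without the filter on low values and with folds centred on the median of all genes (both settings adjust over every gene with a p), and the count of 4 for the combination against ruxolitinib, which became 1 with independent errors. The cause of the last is the vehicle error, which that setting counts in both arms. The 27 include counts of 0 that stayed 0 in every setting, and these do not measure how well calls held. They are those of the combination against palbociclib, palbociclib against ruxolitinib, and the combination against the sum of both drugs. Of 310 recomputed outcomes of single genes, passed or not, 294 were kept, 14 calls were lost and 2 were gained. The 294 include many genes that had not passed and stayed so, and do not measure how well the calls held. No sign could change, because only centring altered a fold. The medians it took off were smaller in size than any fold of the 10 genes in the same comparison. The 10 vehicle levels were unchanged when solved from the ruxolitinib and combination errors alone. The level and dispersion already fitted all 3 errors, so dropping the palbociclib error could not change them. Slamf1 gained its call at an adjusted p under 0.1, in the combination against vehicle and against ruxolitinib. Sult1a1 lost its palbociclib call (2.73 on the log2 scale) at an adjusted p under 0.01, without the filter and with centred folds. The medians taken off by centring were -0.0024, 0.0002 and -0.0143 for palbociclib, ruxolitinib and the combination. A correlation of 0.5 between the deposited estimates changed no call of the 10 genes. The estimates share the vehicle libraries in groups of equal size, so a correlation near 0.5 is already built in. That setting nearly repeats the main Wald test, with Procr at adjusted p = 0.00273 beside 0.00258 for the combination against ruxolitinib. It does not measure how well the calls held.

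Leaving out single libraries was not possible because the tables hold no value per library. No paired analysis was possible because the deposited tables hold no value per library, although the labels number the libraries of each group alike. Sult1a1 had both the lowest vehicle level of the 10 genes, 19.7 modelled normalised reads, and the largest modelled spread, 70.7%, and which of these limits its precision was not tested.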

Other observations

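Some surface genes stood against the direction of their list, and are named after their values were seen. Prom1, which encodes prominin-1, was at 36.1 normalised reads with palbociclib, 35.6 with ruxolitinib, 17.9 in the combination and 140 in vehicle. It fell with palbociclib and in the combination, where the authors' deposited table listed -1.96 ± 0.68 and -2.97 ± 0.70 (adjusted p = 0.0468 and 0.000491). Cd82, a tetraspanin gene, fell with each single drug, listed by the authors' deposited table at -0.55 ± 0.18 with palbociclib and -0.61 ± 0.18 with ruxolitinib (adjusted p = 0.0309 and 0.031). In the combination Cd82 did not pass, and the authors' deposited table listed -0.22 ± 0.18 (adjusted p = 0.39). Cd27, in the progenitor list, rose with palbociclib and in the combination, by 0.44 ± 0.14 and 0.59 ± 0.14 as the authors' deposited table has it (adjusted p = 0.0259 and 0.000448). Flt3, the receptor gene that marks multipotent progenitors, is given beside Cd27 and passed in no comparison with vehicle. It was at 3877 normalised reads with palbociclib, 5153 with ruxolitinib, 7724 in the combination and 5741 in vehicle. Its log2 fold change was -0.57 with palbociclib and -0.16 with ruxolitinib, the direction of its list, and 0.43 in the combination.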
